A study of Caenorhabditis elegans with 2 samples.

Results

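Chromosome V held 5644 of the 30000 candidate regions (18.8%) in a ChIP-seq experiment on the transcription factor UNC-30 in Caenorhabditis elegans larvae. All regions of the pooled ce11 candidate list that lie on V were taken. A region was placed in the centre when its summit, the position of highest signal, lay from 6000000 to 16000000, and in an arm otherwise. This gave 2857 regions in the arms, of which 1640 lay in the left arm and 1217 in the right arm, and 2787 regions in the centre. The other 5 nuclear chromosomes held 24356 regions. The rule uses position alone and no signal value, although it was set with earlier results of these data known.

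The experiment comprised 1 group of 2 libraries, which the labels call biological replicates. Both came from whole first-stage (L1) larvae of mixed sex of the strain OP395, which carries the unc-119 allele tm4063 and an integrated transgene, wgIs395. That transgene expresses UNC-30 fused C-terminally to GFP and FLAG. The antibody field of the labels names unc-30 and does not say whether the tag was its target. Chromatin was sheared by sonication, and since whole animals were used, the few cells that make UNC-30 are mixed with all others. With 1 group, no condition is compared, and regions of V share the same 2 libraries.

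UNC-30 is a homeodomain protein of the Pitx family and is known for specifying the D-type GABAergic motor neurons. Autosomes of C. elegans have gene-dense centres with little recombination and arms that recombine more and hold more repeats. Chromosome V is known for its large clusters of chemoreceptor genes (seven-transmembrane receptors of the srh, str, srw and related families), nuclear hormone receptor genes and F-box genes, many of them in the arms.

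The windows under the highest summit of each zone of V are shown first, because the values below return to them. They are ce11 (WBcel235) sequence from RefSeq, plus strand, from 100 bp before to 100 bp after the summit, and the capitals mark GACGCA on either strand. The left arm window is chrV:1151431-1151631, upstream of cmd-1 (calmodulin). The right arm window is chrV:20778320-20778520, upstream of hif-1 (hypoxia-inducible factor), and the centre window is chrV:6224523-6224723, in an intron of W06H8.6.
left arm, cmd-1: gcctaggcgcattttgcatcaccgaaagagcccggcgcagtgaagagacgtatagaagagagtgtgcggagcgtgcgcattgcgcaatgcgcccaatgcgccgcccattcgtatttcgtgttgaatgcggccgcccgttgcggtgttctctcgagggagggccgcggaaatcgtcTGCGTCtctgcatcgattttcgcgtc
right arm, hif-1: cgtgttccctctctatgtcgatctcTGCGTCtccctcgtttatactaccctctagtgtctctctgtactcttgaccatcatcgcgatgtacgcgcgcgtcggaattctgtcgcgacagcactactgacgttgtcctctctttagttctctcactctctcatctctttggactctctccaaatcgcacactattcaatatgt
centre, W06H8.6: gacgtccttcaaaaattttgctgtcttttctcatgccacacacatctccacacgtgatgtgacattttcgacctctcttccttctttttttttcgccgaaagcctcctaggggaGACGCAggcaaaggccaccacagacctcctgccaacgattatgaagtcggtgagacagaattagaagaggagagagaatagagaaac
The letters GACGCA, chosen because earlier results of these data named them, occurred once in each of these windows. The left arm window also held ATGCGC 4 times, counting both strands, and the other 2 windows held none.

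TAATCC is the core that bicoid-type homeodomains such as that of UNC-30 are known to bind. The highest region of each zone that holds it within 100 bp of its summit is shown over 61 bp, with TAATCC in capitals. These are chrV:1471696-1471756 on the minus strand near unc-60 (cofilin, an actin regulator), chrV:20837640-20837700 on the plus strand near mrps-12 (a mitochondrial ribosomal protein) and chrV:11446726-11446786 on the plus strand near mig-17 (a secreted metalloprotease).
left arm, unc-60: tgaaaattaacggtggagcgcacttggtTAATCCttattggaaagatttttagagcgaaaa
right arm, mrps-12: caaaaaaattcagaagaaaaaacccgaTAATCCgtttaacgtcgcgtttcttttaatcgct
centre, mig-17: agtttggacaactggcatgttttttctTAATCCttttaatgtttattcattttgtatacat
Signal in the pooled list was 50.02 at the unc-60 region, 26.6 at the mrps-12 region and 37.1 at the mig-17 region. In the right arm such a region thus stood only at rank 740 of the pooled list. In the replicates' own lists the mrps-12 region had no summit within 100 bp in replicate 1 and rank 13291 in replicate 2. The mig-17 region had rank 244 in replicate 1 and 6097 in replicate 2. Its summit lay in a coding exon, 160 bp downstream of the 5′ end of mig-17.

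Signal is the authors' own height of a region, and its scale is not given in the sources used here, so signals are compared within a list only. Each of the 3 candidate lists (pooled, replicate 1, replicate 2) holds 30000 regions of 1 width, 356 bp in the pooled list and replicate 1 and 380 bp in replicate 2. A fixed number of regions means that a list reaches far into low signal. In the pooled list signals ran from 10.75 to 113, and only 125 regions (0.417%) were kept by the authors as thresholded peaks. No read counts were at hand, so sequencing depth is unknown. The ranges in brackets after shares are Wilson intervals at 95%, and they cover counting error only.

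Candidates were sparser on V than elsewhere, and slightly sparser in its arms than in its centre. V held 270 regions per Mb in the pooled list, 268 in replicate 1 and 277 in replicate 2. The other chromosomes held 307, 307 and 305 regions per Mb in the same lists. Among single chromosomes of the pooled list, only II was sparser than V, at 254 per Mb, and IV was densest at 341. The arms of V held 262 regions per Mb in the pooled list, 260 in replicate 1 and 264 in replicate 2. The centre held 279, 277.5 and 291 per Mb, above the arms in all 3 lists.

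This order is the reverse of that on the other chromosomes pooled. There, arms cut at the same fractions of the length (28.7% and 76.5%) held 318 regions per Mb in the pooled list, 317 in replicate 1 and 308 in replicate 2. Their centres held 295, 297 and 301. The ratio of arms to centre was 0.938, 0.937 and 0.908 on V and 1.08, 1.07 and 1.02 over the other chromosomes, in the same order of lists. Single chromosomes ran from 0.976 on I to 1.25 on III in the pooled list. So V had the lowest ratio, although I lay below 1 in all 3 lists and II lay below 1 in both replicates.

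Candidate density did not rise with gene density between V and the other chromosomes or over bins of V, but it did from arms to centre. V held 239 starts of protein-coding genes per Mb, against 189 on the other chromosomes, so the chromosome with more genes had fewer candidates. Within V the arms held 222 gene starts per Mb and the centre 257, so here the zone with more genes also had more candidates. Over the 21 bins of 1 Mb, candidate density and gene density gave a Spearman coefficient of -0.371, given as a description, since the bins share the libraries and the repeat content. The density of both replicates over the same bins gave 0.809.

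Bins of the arms varied more than bins of the centre. In the pooled list they ran from 169 to 335 regions per Mb in the 11 arm bins, and from 237 to 309 in the 10 centre bins. The standard deviation over bins was 59.7 per Mb in the arms and 25.1 in the centre, and it was 57.1 against 27.1 in replicate 1 and 58.2 against 29.2 in replicate 2. The lowest bins lay in the right arm, from 17000001 to 18000000 with 169 regions, and in the left arm, from 2000001 to 3000000 with 181. The highest bin was the innermost of the left arm, with 335 regions. The right arm as a whole held 247 regions per Mb and the left arm 273. In replicate 1 the right arm held 255.7 and the left arm 264, and in replicate 2 they held 252 and 275.

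**Figure D1:**
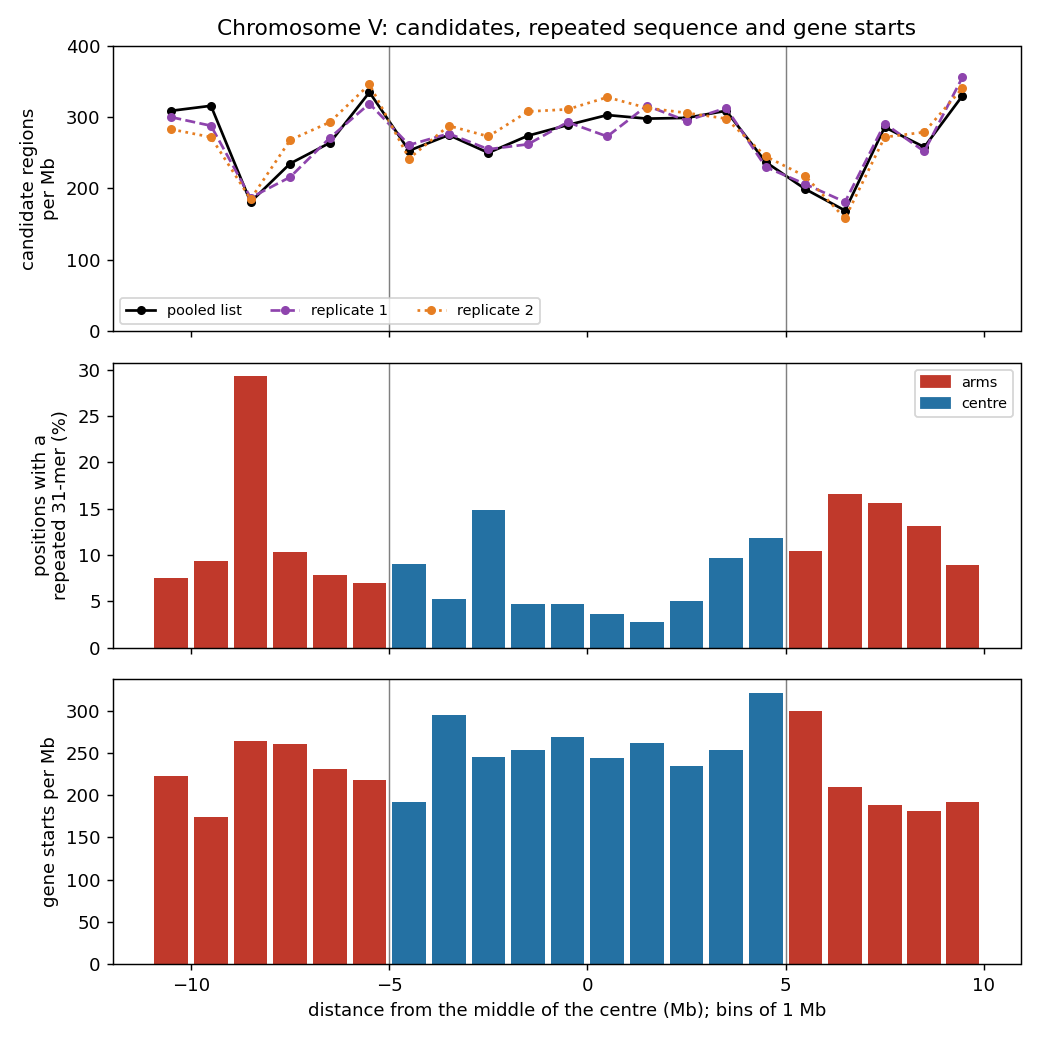
Each point or bar is a bin of 1 Mb along V, placed by its distance from the middle of the centre in Mb, with grey lines at the borders. The top panel gives candidate regions per Mb in the 3 lists, the middle panel the share of positions whose 31-mer occurs more than once, and the bottom panel gene starts per Mb. The dips to 181 and 169 regions per Mb in the pooled list appear in all 3 lists, and the left dip lies in the bin with 29.3% repeated positions.

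Per base of unique sequence the difference between arms and centre was nearly absent in the pooled list and replicate 1, and remained in replicate 2. A position was called repeated when the 31 bases starting there occur more than once in the nuclear genome on either strand, which made 12.4% of the arms and 7.15% of the centre repeated. Per Mb of the remaining positions the arms held 299 regions and the centre 300 in the pooled list. In replicate 1 they held 297 and 299, and in replicate 2 the arms held 302 and the centre 314. The 2 arms differed, with 310 in the left arm and 284 in the right arm in the pooled list. For replicate 1 it was 299 and 294, and for replicate 2 it was 312 and 290. Bins of the arms still varied more in the pooled list, with a standard deviation of 56.2 per unique Mb against 21.0 in the centre. V as a whole stayed below the other chromosomes on this measure, at 299 against 335 per unique Mb. The ratio of arms to centre per unique Mb was 0.995, 0.993 and 0.962 on V in the pooled list, replicate 1 and replicate 2. Over the other chromosomes it was 1.15, 1.135 and 1.09, so V stayed below them on this ratio too. Summit windows of candidates contained few repeated positions, on average 2.19% in the arms and 0.533% in the centre. This measure was chosen after the densities were seen, and the part of read mapping in the result was not tested.

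The longest stretches of V without a candidate in any of the 3 lists were 2 neighbours in the left arm and 1 in the centre. The longer left arm stretch ran between summits at 2345705 and 2486719, over 141014 bp with 29 gene starts. Among these genes were 10 chemoreceptors, of the srd, str, srbc and srt families, and irld-35, clec-209, nas-2, F56A4.10 and F56A4.12 were each annotated there in more than 1 copy. Of its positions 99.2% were repeated. The centre stretch ran between 8805467 and 8899649, over 94182 bp with 28 gene starts, 14 of them histone genes. Here 92.0% of positions were repeated, and C01B7.7 and the histone genes his-49 to his-52 were annotated in more than 1 copy.

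No other chromosome had a candidate-free stretch as long as the one in the left arm of V. The longest on V was 141027 bp in the pooled list, 142240 in replicate 1 and 220224 in replicate 2, and the next chromosome, X, had 104225, 92762 and 94114 bp. A lone pooled region at summit 2486732, with a signal of 12.3 and rank 22400, ends the left stretch in the pooled list, and replicate 1 has its own summit at 2486719. After it the candidates stopped again in all 3 lists, up to a summit at 2564865 in the pooled list and replicate 1 and at 2565905 in replicate 2, which has no summit in between. In the pooled list this further stretch spanned 78133 bp, and 98.6% of its positions were repeated. It was overlapped at least in part by 19 protein-coding genes, 9 of them chemoreceptors. Leaving all 3 stretches out of the lengths gave a ratio of arms to centre of 0.949.

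Heights in the arms were a little lower than in the centre. Median signal in the pooled list was 13.9 in the arms and 14.2 in the centre. In replicate 1 it was 8.39 in the arms and 8.61 in the centre, and in replicate 2 it was 8.52 and 8.69. The 90th percentile of the pooled list was 20.3 in the arms and 20.7 in the centre. These gaps are small against the range over bins, whose medians ran from 13.4 to 14.3 in the arms and from 13.7 to 14.5 in the centre. On V as a whole the median was 14.1, against 14.2 on the other chromosomes. The highest region of the arms reached 66.5 and that of the centre 98.2.

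Among the 1000 highest signals, V was represented below its number of candidates, and arms and centre did not separate. Of all pooled regions 3.33% belong to the 1000 highest. On V 159 regions did, or 2.82% (2.42 to 3.28%), against 841 on the other chromosomes, or 3.45% (3.23 to 3.69%). The shares were 2.87% on V against 3.44% elsewhere in replicate 1, and 2.79% against 3.42% in replicate 2. V was below the other chromosomes pooled in all 3 lists, with intervals that overlap in the pooled list. Those chromosomes were not alike. In the pooled list II had 3.24% (2.73 to 3.85%), a share inside the interval of V, and I had 3.61% (3.11 to 4.18%). Both intervals overlap that of V. X had 160 of 5328 regions among the 1000 highest, IV had 203 of 5967 and III had 182 of 4461. A low share was thus not shown to be particular to V.

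In the arms 81 of 2857 pooled regions were among the 1000 highest, or 2.84% (2.29 to 3.51%), and in the centre 78 of 2787, or 2.80% (2.25 to 3.48%). In the replicates' own lists the order was reversed, with 2.36% in the arms and 3.39% in the centre for replicate 1, and 2.60% and 2.99% for replicate 2. A difference between arms and centre was therefore not resolved here. The right arm was lowest in each list, with 2.79% in the pooled list, 1.75% in replicate 1 and 1.93% in replicate 2. For the left arm the shares were 2.87%, 2.85% and 3.10%.

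**Figure D2:**
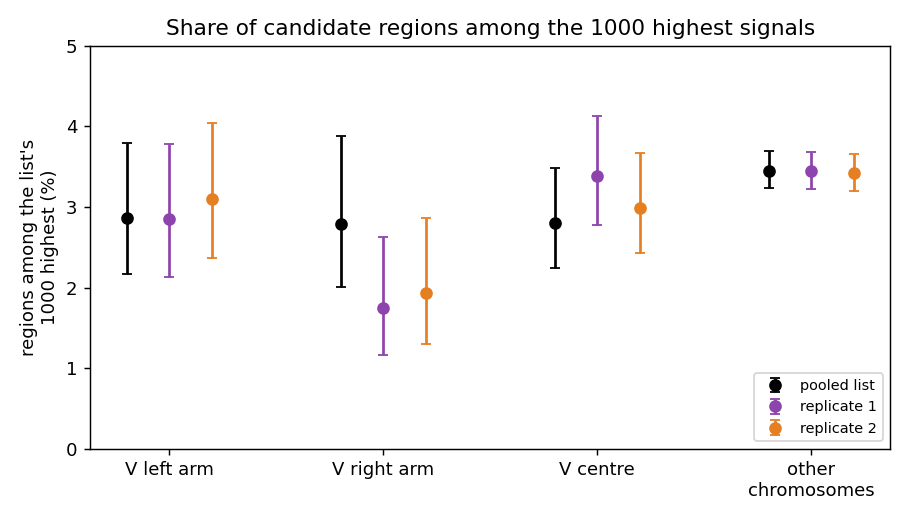
Points give the percentage of candidate regions that belong to the 1000 highest signals of their list, for the pooled list and each replicate's own list, and bars are 95% Wilson intervals. The other chromosomes sit between 3.42% and 3.45% in the 3 lists, and the right arm of V sits at 1.75% and 1.93% in the replicates against 2.79% in the pooled list.

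Few high regions of V were high in both replicates. Of the 81 arm regions among the 1000 highest, 56 had a summit of each replicate's own list within 100 bp, and of the 78 centre regions 57 had one. When the match had to rank among the 1000 highest in both replicates, 5 arm regions and 6 centre regions remained. On the other chromosomes this held for 76 of 841 regions, or 9.04% (7.28 to 11.2%), against 11 of 159 on V, or 6.92% (3.91 to 11.96%). Membership of a single region in the 1000 highest thus depends on the list.

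Summits lay closer to gene starts on V than elsewhere, and within V they lay farther from them in the arms. The nearest 5′ end among protein-coding genes was at a median of 1302 bp from arm summits and 1075 bp from centre summits. The same median over all bases was 1366 bp in the arms and 1177 bp in the centre, so summits were nearer than bases in both zones. For V as a whole the median was 1179 bp over summits and 1271 bp over bases, against 1688 and 1729 bp on the other chromosomes.

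The step just upstream of genes showed the widest gap. In the arms 358 summits, or 12.5% (11.4 to 13.8%), lay from 1 to 500 bp upstream of the nearest 5′ end, and in the centre 435 did, or 15.6% (14.3 to 17.0%). That step covers 10.3% of arm bases and 11.6% of centre bases, so both shares were above the share of bases. Replicate 1 gave 12.5% in the arms and 14.2% in the centre, and replicate 2 gave 11.9% and 14.8%. On V as a whole 14.05% of summits lay in this step (10.9% of bases), against 10.75% on the other chromosomes (8.45% of bases).

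Arm candidates also lay more often in introns. Summits in introns made 36.9% of the arms and 28.6% of the centre, where introns cover 31.9% and 25.4% of bases. Coding exons held 14.1% of arm summits and 18.95% of centre summits, in both zones below their 23.45% and 30.2% of bases. Replicate 1 gave 36.3% of arm summits and 29.95% of centre summits in introns and 16.7% and 20.6% in coding exons. In replicate 2 it was 34.9% and 29.05% in introns and 15.55% and 19.6% in coding exons. The same windows around arm summits consisted to 47.6% of bases that RefSeq masks as repeats, against 34.3% in the centre. Over all bases the masked share was 39.5% in the arms and 27.9% in the centre. Candidates were thus richer in masked repeats than their zone while nearly free of repeated 31-mers.

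Among the 1000 highest regions the same step held 18 of 81 arm summits, or 22.2% (14.5 to 32.4%), and 23 of 78 centre summits, or 29.5% (20.5 to 40.4%). Replicate 1 gave 17.9% in the arms and 36.2% in the centre. Replicate 2 gave 14.7% and 16.1%, so the size of the gap depends on the replicate and the intervals overlap in the pooled list. From 500 to 1000 bp upstream lay 12 of the high arm summits and 5 of the high centre summits.

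**Figure D3:**
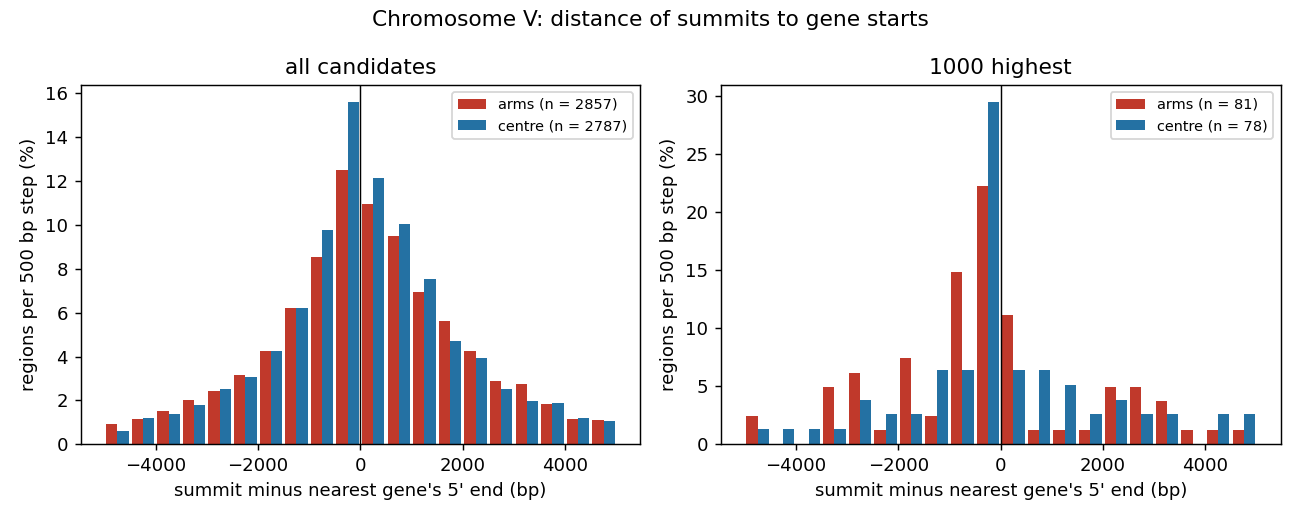
Bars give the percentage of summits in steps of 500 bp by their signed distance to the nearest 5′ end of a protein-coding gene (negative is upstream), for all candidates (left) and the 1000 highest (right), with arms in red and centre in blue. In the step next to the 5′ end on the upstream side the arms reach 12.5% and the centre 15.6% over all candidates, and 22.2% and 29.5% among the 1000 highest.

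Chemoreceptor genes, whose products detect odours and other chemicals, make up 552 of the 2426 protein-coding genes of the arms (22.8%) and 340 of the 2568 of the centre (13.2%), against 2.83% elsewhere. A chemoreceptor was the nearest gene of 16.7% of arm summits (15.3 to 18.1%) and of 11.2% of centre summits (10.1 to 12.4%). In the arms this was below the 19.1% of bases that have a chemoreceptor as nearest gene, and in the centre it was close to the 11.3% of bases. Replicate 1 gave 16.4% in the arms and 11.2% in the centre, and replicate 2 gave 16.6% and 11.13%.

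A promoter window covered the 2000 bp before a 5′ end and the 500 bp after it. Over all 19973 nuclear protein-coding genes 56.3% held a pooled candidate there. In the arms 1227 genes did, or 50.6% (48.6 to 52.6%), and in the centre 1422, or 55.4% (53.4 to 57.3%). The other chromosomes gave 57.4%. Both replicates kept this order, with 49.9% and 51.5% in the arms and 55.2% and 56.5% in the centre.

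Chemoreceptor genes of the arms were below the background and below the arms' genes at large. A promoter candidate was found at 255 of 552 of them, or 46.2% (42.1 to 50.4%), against 182 of 340 in the centre, or 53.5% (48.2 to 58.8%). In replicate 1 the shares were 45.5% in the arms and 50.3% in the centre, and in replicate 2 they were 48.0% and 50.3%. The largest family, srh, had a candidate at 52 of 128 arm genes and 24 of 52 centre genes. For str it was 38 of 89 and 35 of 68, for srw 36 of 68 and 15 of 27, and for srx 15 of 33 and 33 of 46. These counts are from the pooled list. Replicate 1 gave 59 and 30 for srh, 36 and 34 for str, 34 and 12 for srw, and 13 and 25 for srx. Replicate 2 gave 59 and 27, 42 and 28, 34 and 11, and 19 and 27. The order of the shares reversed for srw in both replicates and for str in replicate 2. The srx gap was nearly absent in replicate 2. Of the 27 arm chemoreceptor promoters that consist to at least 50% of repeated 31-mers, 0 held a candidate, which allows a share of up to 12.5%. Over all genes with such promoters it was 10 of 120 in the arms (8.33%) and 69 of 653 in the nuclear genome (10.6%), both within what the 0 allows.

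Restricting the genes to promoters with under 10% repeated positions raised the shares of these groups and kept the 2 arms together below the centre. Of 1847 such genes in the arms 55.8% held a pooled candidate, against 59.4% of 2205 in the centre and 61.3% elsewhere. For chemoreceptors it was 50.7% of 430 in the arms (46.0 to 55.4%) and 59.3% of 285 in the centre. Replicate 1 gave 50.9% in the arms and 55.1% in the centre, and replicate 2 gave 52.6% and 54.0%, a smaller gap. The arms differed for these chemoreceptors, with 53.9% in the left arm and 45.4% in the right arm in the pooled list. In replicate 1 it was 50.6% and 51.5%. In replicate 2 it was 55.1% and 48.5%, so the left arm was not below the centre there.

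Other families of V did not share 1 pattern. Nuclear hormone receptor genes, which encode ligand-regulated transcription factors, held a candidate at 58 of 102 in the arms (56.9%) and 35 of 65 in the centre (53.8%). Their arm share was above the centre's in replicate 1 (55.9% and 46.2%) and below it in replicate 2 (61.8% and 63.1%). F-box genes, for substrate adaptors of ubiquitin ligases, held one at 32 of 66 in the arms and 13 of 21 in the centre, and the arm share was 48.5% in the pooled list, 31.8% in replicate 1 and 56.1% in replicate 2. C-type lectin genes were low, at 18 of 58 in the arms (31.03%) and 12 of 28 in the centre (42.9%), against 56.3% of all genes. On the other chromosomes they were low too, at 65 of 154 (42.2%). In the arms their share was 27.6% in replicate 1 and 37.9% in replicate 2, against 42.9% and 53.6% in the centre. Cytochrome P450 genes, for oxidising enzymes, gave 17 of 31 in the arms and 7 of 10 in the centre in the pooled list. Both replicates had the opposite order, with 22 of 31 and 6 of 10 in replicate 1 and 23 of 31 and 6 of 10 in replicate 2. Cuticle collagen genes gave 1 of 4 in the arms and 8 of 27 in the centre, against 67 of 125 elsewhere. The collagen counts on V were 2 of 4 and 10 of 27 in replicate 1, and 2 of 4 and 8 of 27 in replicate 2. For histone genes it was 0 of 4 in the arms and 4 of 23 in the centre in the pooled list, 1 of 4 and 7 of 23 in replicate 1, and 0 of both in replicate 2, and 13 of the 23 centre promoters were at least 50% repeated. Ribosomal protein genes were few. In the pooled list 0 of the 8 on V had a region among the 1000 highest in the promoter, against 27 of 70 elsewhere. In replicate 1 it was 0 of 8 against 21 of 70, and in replicate 2 it was 2 of 8 against 11 of 70, so the contrast did not hold in every list.

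**Figure D4:**
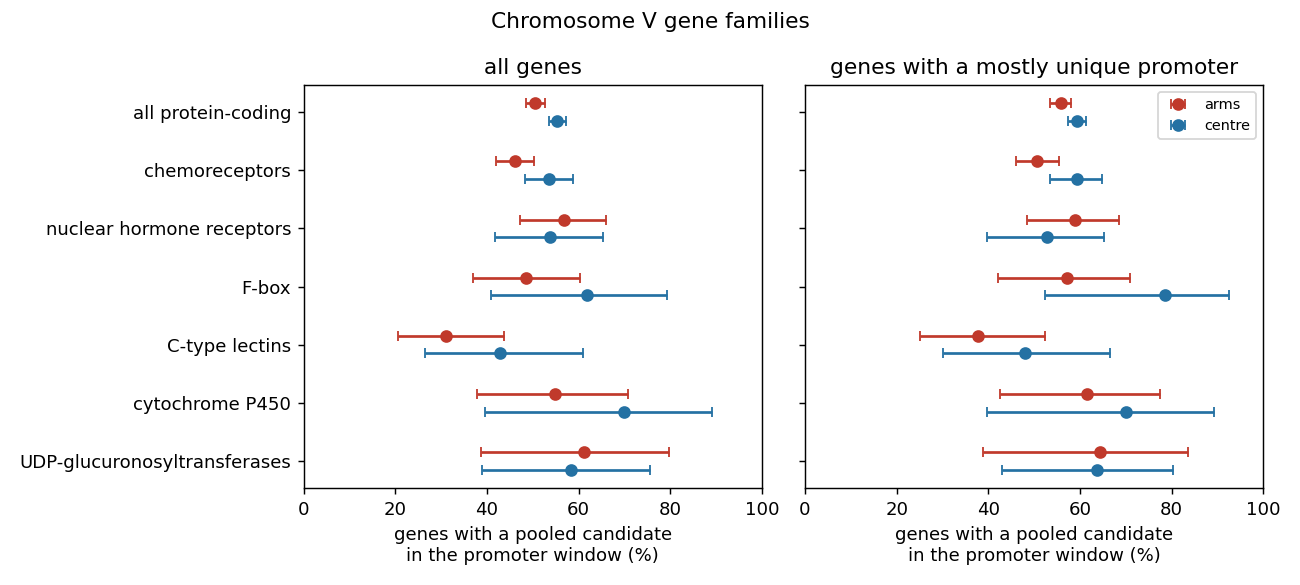
Points give the percentage of genes with a pooled candidate in the promoter window, for arms (red) above centre (blue), with 95% Wilson intervals, over all genes (left) and over genes whose promoter has under 10% repeated positions (right). Chemoreceptors sit at 46.2% in the arms and 53.5% in the centre over all genes, and the intervals of the smaller families overlap.

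Over all genes 3.98% had a region of the 1000 highest in the promoter window. It was 66 of 2426 in the arms and 62 of 2568 in the centre in the pooled list. Replicate 1 gave 41 and 82 and replicate 2 gave 45 and 67, so the zones' order again differed between the pooled list and the replicates. Among the families, the highest chemoreceptor was srh-16 in the centre, with a signal of 44.8 in the pooled list, 32.1 in replicate 1 and 8.99 in replicate 2, where its rank was 13561. This high region thus rests on replicate 1. The highest nuclear hormone receptor gene was nhr-47 in the left arm, with a signal of 36.0, and with 15.6 in replicate 1 and 26.2 in replicate 2. For F-box genes it was fbxa-106 in the right arm (40.5), whose summit is shared with slr-2. The proteasome subunit gene rpt-1 in the centre had 28.0, oac-1 in the right arm 25.7 and ugt-49 in the centre 25.4, just inside the 25.3 that closes the 1000 highest.

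Of the 125 thresholded peaks 19 lay on V, with 8 in the left arm, 3 in the right arm and 8 in the centre. Over all genes 0.671% had such a peak in the promoter window, and the counts were 8 genes in the arms and 11 in the centre. In density this was 1.01 peaks per Mb in the arms and 0.800 in the centre, against 1.34 on the other chromosomes. From 1 to 500 bp upstream of a 5′ end lay 3 of the 11 arm peaks (27.3%, 9.75 to 56.6%) and 6 of the 8 centre peaks (75%, 40.9 to 92.8%), with intervals that overlap. That step covers 10.3% of arm bases and 11.6% of centre bases. All 6 peaks more than 2000 bp upstream were in the left arm. The absolute distance had a median of 2629 bp in the arms and 310.5 bp in the centre.

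The left arm peak nearest to cmd-1 (WBGene00000552), at chrV:1151353-1151708, lay 4740 bp upstream in intergenic sequence. Its signal was 66.5 in the pooled list, 37.2 in replicate 1 and 26.2 in replicate 2, with ranks 27, 42 and 49, so it was high in all lists. It had 2 further regions of the 1000 highest beside it, all 3 within 6740 bp. The peak at unc-60 (WBGene00006794) lay 3266 bp upstream, with 50.02 in the pooled list, 28.2 in replicate 1 and 23.5 in replicate 2. That at C18G1.1 lay 2636 bp upstream, with 49.3, 25.5 and 22.5. These 3 peaks ranked 144 or better in every list.

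The other left arm peaks rested more on replicate 1. At T08H10.3 the signal was 42.6 in the pooled list, 33.2 in replicate 1 and 11.9 in replicate 2, where its rank was 4801. At ttc-37, which encodes a tetratricopeptide repeat protein, it was 39.2, 24.5 and 11.9. The peak upstream of lgc-26, a ligand-gated ion channel gene, had 39.5 in the pooled list and 26.7 in replicate 1, and no summit within 100 bp in replicate 2. Near gene starts, trm-2A, a tRNA methyltransferase gene, had 40.7, 21.7 and 14.3 at 95 bp upstream. The gene vps-37, for an ESCRT-I subunit, had 39.4, 25.5 and 14.0 at 216 bp upstream. All 8 left arm peaks ranked among the 1000 highest of replicate 1, and 3 did so in replicate 2.

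In the right arm the peak at hif-1 (WBGene00001851), chrV:20778242-20778597, lay 1987 bp upstream. Its signal was 54.2 in the pooled list and 42.6 in replicate 1, with no summit within 100 bp in replicate 2. At nova-1, which encodes an RNA-binding protein, an intronic peak had 42.7 in the pooled list and 22.1 in replicate 2. This peak had no summit within 100 bp in replicate 1. Within 200 bp all 3 right arm peaks had a summit in replicate 1, and 2 of 3 had one in replicate 2. At slr-2, for a zinc finger protein, the peak 60 bp upstream had 40.5, 21.6 and 18.2 and was matched in both replicates. Below the threshold, the next right arm regions were at Y43F8C.5 (38.2), Y17D7C.2 (36.1) and usp-50 (35.7). The windows of Y43F8C.5 and Y17D7C.2 were masked as repeats over their whole length. Y17D7C.2 was the nearest gene of 4 of the 1000 highest regions, all within 5394 bp, with signals from 29.4 to 36.1. The summit with 36.1 lay in an intron, and the others lay 532, 750 and 2125 bp upstream of the 5′ end. The regions at 532 and 750 bp share bases, and the one at 750 bp had no summit within 100 bp in either replicate.

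The highest region of V was in the centre, at chrV:6224445-6224800 in an intron of W06H8.6 (WBGene00021068), 2387 bp inside the gene from its 5′ end. Its signal was 98.2 in the pooled list, 44.4 in replicate 1 and 48.4 in replicate 2, with ranks 4, 23 and 12. An intronic peak also lay in pxn-1, a peroxidasin gene, with 43.0, 23.3 and 20.7. At C47E8.4, 296 bp upstream, the signal was 61.8, 47.3 and 16.4.

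Besides srh-16 and C47E8.4, a further 4 centre peaks lay within 500 bp upstream of a 5′ end. At spas-1, for the microtubule-severing protein spastin, the signal was 44.9 in the pooled list, 25.9 in replicate 1 and 17.8 in replicate 2. At sluh-7, a splicing factor gene, it was 42.3, 17.1 and 20.2. At sec-61.G, for a subunit of the protein channel of the endoplasmic reticulum, it was 42.4, 15.6 and 27.6. The peak at F55A11.1, which also lies in the promoter window of the syntaxin gene syx-5, had 42.6, 19.3 and 29.65. All 8 centre peaks had a summit in both replicates within 100 bp, as did 8 of the 11 arm peaks and 86 of the 106 on the other chromosomes. The 3 without a match in both, lgc-26, nova-1 and hif-1, were all in the arms.

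**Figure D5:**
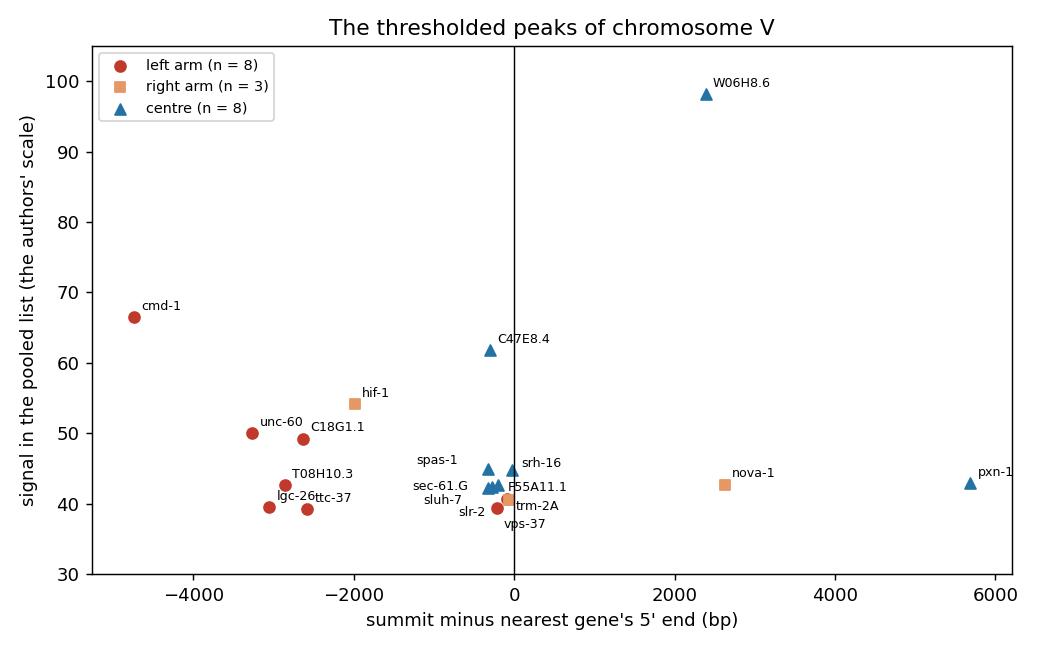
Each point is 1 of the 19 thresholded peaks of V, placed by the signed distance of its summit to the nearest 5′ end (bp, negative is upstream) and its signal in the pooled list. 6 left arm peaks lie from 2583 to 4740 bp upstream, whereas 6 of the 8 centre peaks lie within 500 bp upstream, and W06H8.6 stands highest at 98.2.

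Motifs were counted on both strands within 100 bp of the summit, in the pooled list. Over all arm candidates the share with TAATCC lay near that of the flanks. It occurred in 6.37% of arm windows (5.53 to 7.33%) and 8.04% of centre windows (7.09 to 9.11%). Windows of equal width 1000 bp to each side gave 6.02% and 7.52%, and the share over all 30000 regions was 7.18%. Among the 1000 highest it was in 6 of 81 arm windows (7.41%, 3.44 to 15.2%) and 12 of 78 centre windows (15.4%, 9.03 to 24.99%), beside 4.32% and 7.05% of flanks. Over all the 1000 highest regions the share with TAATCC was 11.5%, which lies inside both intervals, so the zones were not separated. The left arm had it in 5 of 47 windows (10.6%, 4.63 to 22.6%) and 2 of 94 flanks (2.13%). The right arm had it in 1 of 34 windows (2.94%, 0.521 to 14.9%), the mrps-12 window shown above, and 5 of 68 flanks (7.35%). These intervals overlap, so the left and right arm were not separated either. Among the 19 thresholded peaks TAATCC was in 3, at unc-60, C18G1.1 and ttc-37, all in the left arm.

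GACGCA, the letters marked in the 3 windows shown above, was in 4 of 81 high arm windows (4.94%, 1.94 to 12.02%) and 12 of 78 high centre windows (15.4%, 9.03 to 24.99%). Flanks gave 4.32% and 3.21%, and over all the 1000 highest regions the share was 9.40%. Over all candidates it was in 3.47% of arm windows and 3.16% of centre windows, near the 3.30% of all regions. ACGCAG, which overlaps GACGCA by 5 letters, was in 5 high arm windows (6.17%, flanks 4.32%) and 9 high centre windows (11.5%, flanks 4.49%), against 8.40% of all the 1000 highest. ATGCGC was in 4 (4.94%, flanks 4.94%) and 6 (7.69%, flanks 2.56%), against 6.90%. CGCGCA was in 5 (6.17%, flanks 4.32%) and 3 (3.85%, flanks 0.641%), against 7.90%. In the arms these shares were near those of the flanks, but their intervals were wide. They ran from 1.94 to 12.02% for ATGCGC, as for GACGCA, and from 2.665 to 13.65% for ACGCAG and CGCGCA. Each interval also holds the share of that motif over all the 1000 highest, so the arms were not separated from that level. A match describes letters only, and flanks were not cleared of other candidates.

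Signals of the regions beside the borders scattered widely, and 3 regions on a side are too few to show or exclude a step. The 3 arm regions nearest below 6000000 had signals of 13.6, 15.8 and 23.4, and the 3 centre regions from there on had 11.45, 11.25 and 29.1. At 16000000 the 3 arm regions above had 15.4, 14.45 and 12.2, and the 3 centre regions below had 15.4, 18.5 and 10.95. Neighbouring regions shared bases in 5.04% of arm regions and 5.53% of centre regions, against 6.03% on the other chromosomes.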

How the data were processed

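The 2 ChIP-seq libraries form 1 group. Per the file lists in the labels, the authors deposited candidate regions (peaks with background) for each replicate and for both pooled, and peaks thresholded by irreproducible discovery rate, for ce11 and ce10. The authors' signal values and −log10 q-values were used as deposited. For the aligner, the caller, its control and its threshold nothing is stated in the labels, and read depth is unknown. The ce11 lists were read with RefSeq ce11 sequence and Ensembl release 115 genes (Python 3.11.15, pandas 2.3.3, numpy 2.4.6). Coordinates count from 1. Each summit was given its zone, its nearest protein-coding 5′ end, its location and its rank by signal. The 19 gene families were defined by symbol prefixes. No test was run over regions or genes: counts, medians and Wilson intervals are given. Each replicate's own list is given for densities, signals, distances, the larger families and the chemoreceptor subfamilies. Motifs are from the pooled list alone. Functions for distances, zones and intervals were checked on simulated regions. Genes were named if nearest to a thresholded peak of V, to 1 of the 6 highest regions of a zone, if highest of their family, or if a sequence is shown. Members, lists and motifs were chosen with earlier results of these data known. Alternatives were other borders, each replicate's list, ce10 (no conversion), merged regions, other thresholds and unique sequence. Mitochondrial regions of replicate 2 were left out.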

Additional observations from a re-analysis of the deposited data

How the results depend on the processing

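Values are arms against centre unless V against the other chromosomes is named. The density ratio 0.938 became 0.902 with the centre from 7000000 to 15000000, 0.995 over positions with a unique 31-mer (chosen after seeing the data), and reversed to 1.26 for thresholded peaks. In the replicates' own lists it was 0.908 to 0.937. The ratio of V to the other chromosomes, 0.879, was 0.873 to 0.909 in the replicates and 0.680 for thresholded peaks. The median signal difference of -0.301 was -0.217 to -0.173 in the replicates, -0.231 with the centre from 5000000 to 17000000 and -0.222 with the narrower one. The difference in percent among the 1000 highest, 0.0364, reversed to -1.03 to -0.391 in the replicates, -0.106 and -0.0947 with the wider and narrower centre, and -0.678 for the 2000 highest. V against the other chromosomes, -0.636, was -0.630 to -0.573 in the replicates, -0.591 for the 500 highest and -0.944 for the 2000 highest. The difference in percent 1 to 500 bp upstream, -3.08, was -2.89 to -1.70 in the replicates, -4.63 with all annotated genes, -4.30 for 1 to 1000 bp and -7.27 for the 1000 highest. The chemoreceptor difference, 5.47, was 5.13 to 5.46 in the replicates, 3.20 and 6.15 with the wider and narrower centre, 7.31 for the 1000 highest and 5.20 by nearest gene span. Of the 19 thresholded peaks, 16 were matched in both replicates within 100 bp, 11 within 50 bp and 17 within 200 bp. The causes were not tested. No paired analysis was possible because there is only 1 group. With 2 libraries of unknown depth, differences of this size are described, not tested.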
